A study of Mus musculus with 8 samples.

Results

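The clustered protocadherins are a family of neuronal cell-surface adhesion proteins encoded side by side on mouse chromosome 18 in the alpha, beta and gamma clusters. Members were all genes whose symbols begin with Pcdha, Pcdhb or Pcdhg followed by an isoform name, a rule that uses no measured value. It found 59 of the 22609 genes counted, with 15 in the alpha, 22 in the beta and 22 in the gamma cluster. The gamma cluster comprised 12 A-type, 7 B-type and 3 C-type members, and the alpha cluster included 2 further C-types.

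RNA was sequenced from sensory neurons of the dorsal root ganglia (DRG) of naïve C57BL/6J mice aged 8 to 12 weeks, with 4 libraries from females, all in the estrous phase, and 4 from males. The lectin wheat germ agglutinin coupled to the dye Alexa Fluor 488 (WGA-488) was injected on both sides into hindpaw and thigh muscle. It travelled back along axons to the cell bodies, and 2 days later the labelled cells were sorted from the L3 to L5 ganglia. Skin and muscle neurons were labelled together, so they cannot be told apart within a library. By the study's methods, 4 females and 4 males were injected and each sample held ganglia of these levels from both sides, 6 in all, the number that 1 mouse has there. P-values measure the spread between these 8 libraries.

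In the alpha and gamma clusters, each variable exon has its own promoter, encodes the extracellular, transmembrane and first intracellular parts of 1 isoform, and is spliced to constant exons shared by the cluster. Beta members are usually single-exon genes with no shared exons. In many neurons, promoters are chosen at random through looping by CTCF and cohesin, and each cell shows its own combination of isoforms, whose matching extracellular domains bind those of neighbouring membranes. This gives neurites a means of self-recognition, while the C-types are expressed in a more regular way and Pcdhgc4 is known for its role in neuronal survival. RNA of many cells was pooled here, so the combination in any 1 cell was not measured.

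The libraries held 4.80 to 7.33 M gene reads (M, 1e6 reads), and levels are given as counts per 1e6 gene reads (CPM). A level of 3 reads, the smallest used here as a floor, was 0.409 to 0.625 CPM. Members took 1798 to 3334 reads per library, 0.0303% to 0.0512% of gene reads. Female replicate 4 stood apart: the chi-square per degree of freedom of its gene counts against the other females was 30.1 to 44.9, whereas it was 2.82 to 12.1 for the other pairs of 1 sex. Summed levels of 15 sensory neuron markers were 26570 to 36661 CPM in females and 26380 to 29640 CPM in males. The 16 markers of satellite glia and Schwann cells summed to 11865 to 15290 CPM in females and 5640 to 11440 CPM in males, without overlap. The 10 fibroblast markers also did not overlap, at 121 to 159 CPM in females and 71.4 to 111 CPM in males. The 10 macrophage markers summed to 2.46 to 15.2 CPM and the 8 endothelial markers to 51.8 to 89.8 CPM over all libraries. The 7 skeletal muscle markers were low and did not overlap either, at 3.71 to 4.89 CPM in females and 0.887 to 2.82 CPM in males, with Tnnt3 and Myod1 at 0 reads everywhere.

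All 3 clusters were expressed. Of the 59 members, 57 had at least 1 read, 50 had at least 3 reads in every library, 53 had a mean level above 1 CPM and 10 had a mean above 10 CPM. The alpha cluster took 42.3% to 58.2% of member reads, the beta cluster 22.1% to 29.8% and the gamma cluster 17.0% to 30.3%. Pcdha4-g and Pcdhb1 had 0 reads in all 8 libraries, and Pcdha4 and Pcdhgb8 had 3 and 5 reads in total. The order of members by level was alike in all libraries: Spearman's rho over the 59 members was 0.867 to 0.935 between libraries of the same sex and 0.869 to 0.933 between libraries of different sex. These values describe libraries that share the same genes and gene lengths, and the within-sex and between-sex ranges lie over each other.

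**Figure D1:**
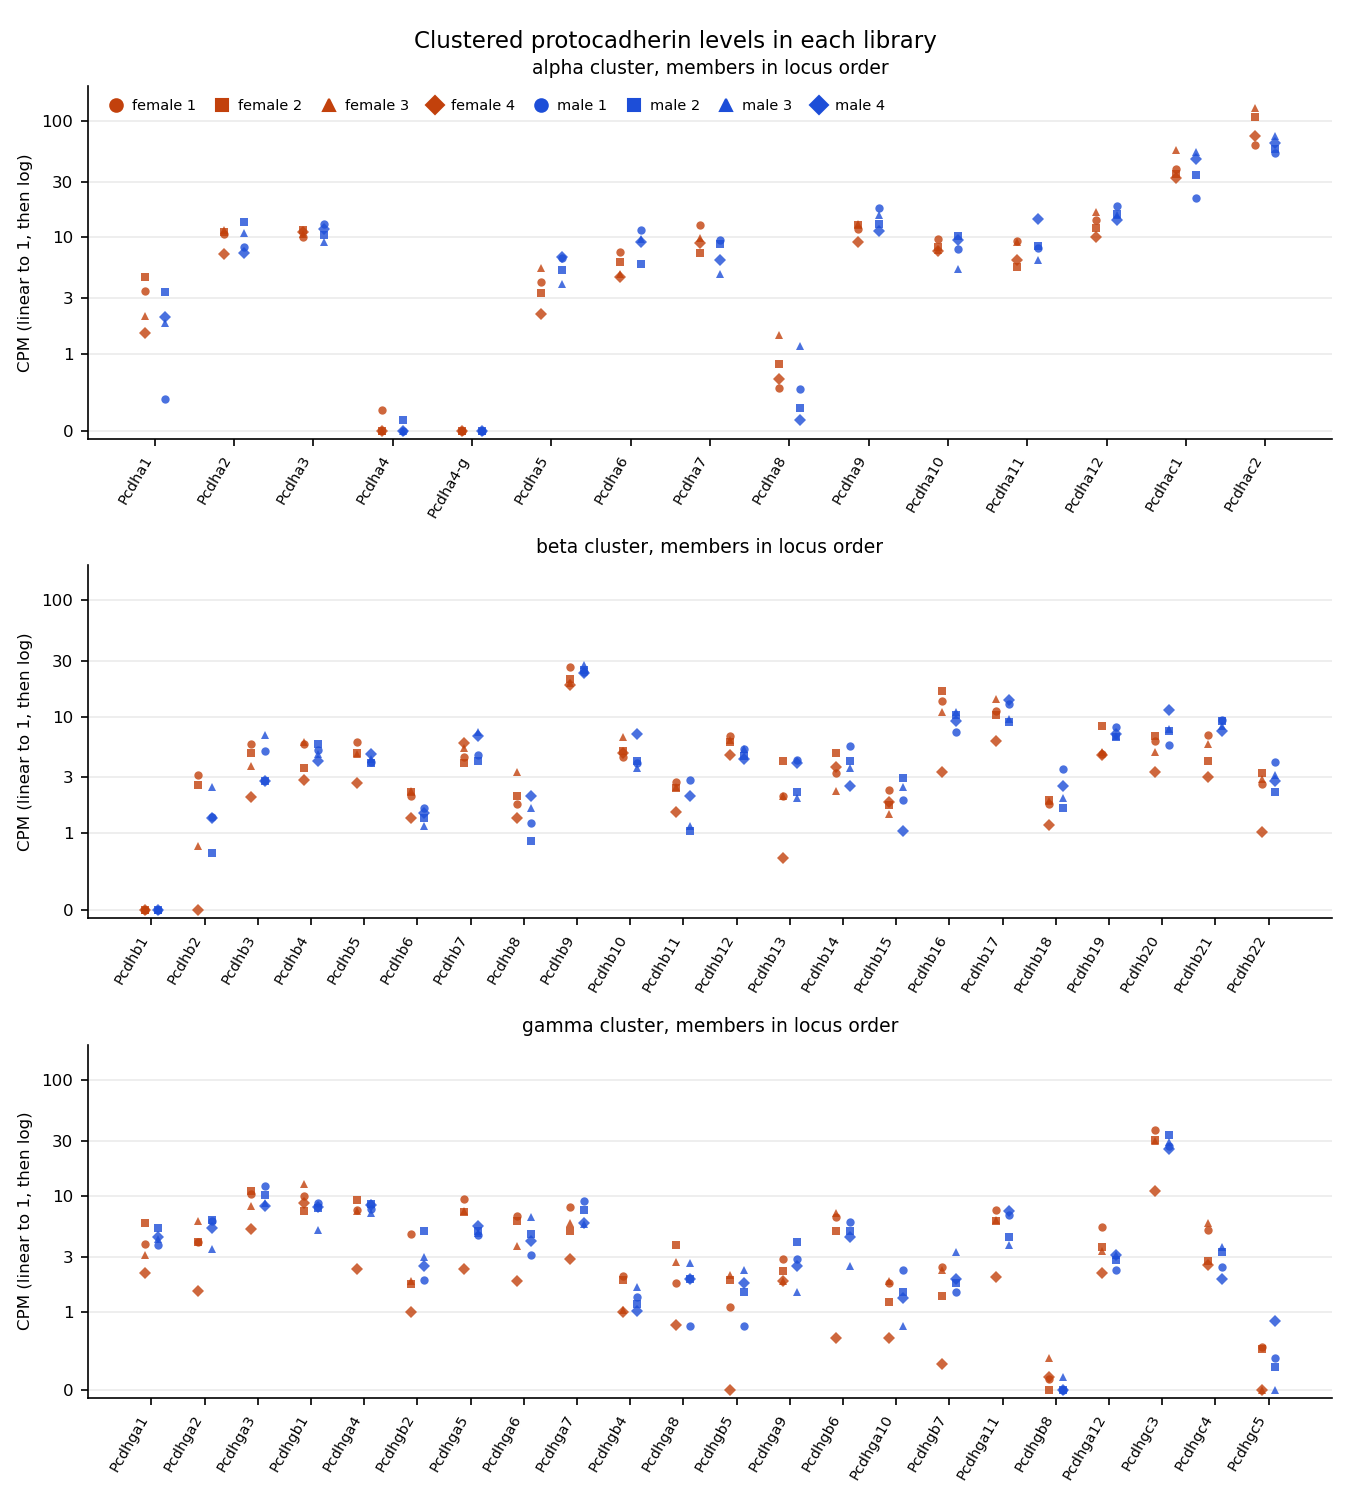
Level of each of the 59 members in each library in CPM (linear up to 1 CPM, logarithmic above), with members in locus order, females in orange, males in blue and marker shape giving the replicate number. Within every library, Pcdhac2, Pcdhac1, Pcdhgc3 and Pcdhb9 lie above the rest of their clusters. Female replicate 4 (orange diamonds) is the lowest of all 8 libraries for 34 members.

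Reads of the alpha and gamma clusters were checked for the shared exons before levels were read. In the GENCODE M1 annotation of NCBIM37 (mm9), which is the authors' genome build, most of the alpha cluster is merged into 1 gene model (chr18:37089939-37347311, plus strand) and the gamma cluster into another (chr18:37833989-38001527, plus strand), each with 2 short internal shared exons of 59 and 89 bases and a shared last exon. The counting annotation of the deposited files lists the isoforms separately and is not given in the sources used here. Reads on constant exons were not credited to every isoform, since Pcdha4-g had 0 reads and Pcdha4 and Pcdhgb8 almost none. The entries Pcdha4 and Pcdha4-g share an isoform name, and whether reads were lost as ambiguous between them was not tested. Whether any isoform's count includes bases of a constant exon could not be tested. First exons in the merged models ran from 2382 to 2562 bases in alpha and from 2565 to 2961 bases in gamma, a range of 7.56% and 15.4% of the shortest, and isoforms of these clusters are given below as numbers of reads, with no order of levels per length.

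In the alpha cluster the members with the most reads were the C-types, Pcdhac2 and Pcdhac1, the isoforms at the downstream end of the cluster. Pcdhac2 had 61.6, 108, 130 and 74.6 CPM in female replicates 1 to 4 and 52.7, 57.2, 74.0 and 64.5 CPM in male replicates 1 to 4. Its mean over all libraries was 77.9 ± 27.2 CPM (SD, n = 8), higher than 87.7% of all genes. Female replicates 2 and 3 were above every other library, and female replicate 1 lay within the male range.

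Pcdhac1 had 38.5, 35.1, 56.5 and 32.2 CPM in female and 21.7, 34.6, 53.7 and 47.3 CPM in male replicates 1 to 4. The sexes overlapped between 32.2 and 53.7 CPM, with male replicate 1 below every female and female replicate 3 above every male. Together the C-types took 51.6% to 66.9% of alpha reads in females and 42.2% to 60.2% in males. Pcdhac2 alone took 31.8% to 47.8% in females and 29.9% to 34.9% in males.

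Among the other alpha isoforms, which are the ones subject to promoter choice, Pcdha12 and Pcdha9 had the most reads, with mean levels of 14.6 ± 2.62 CPM and 13.05 ± 2.69 CPM (SD, n = 8). Pcdha12 ranged from 10.1 to 16.5 CPM in females and from 14.1 to 18.4 CPM in males. Pcdha9 ranged from 9.10 to 12.9 CPM in females and from 11.2 to 17.9 CPM in males. In both isoforms the sexes overlapped, and no library reached the level of Pcdhac1 in any library. At the low end, Pcdha4 had 2 reads in female replicate 1, 1 read in male replicate 2 and none elsewhere, below the floor in every library. This count may understate the isoform, since reads ambiguous between the entries Pcdha4 and Pcdha4-g were not examined. The 8 alpha isoforms not singled out by the naming rule had means from 0.712 CPM (Pcdha8) to 10.9 CPM (Pcdha3). Of the 15 alpha members, 12 had a mean above 1 CPM, whereas the 2 C-types alone took 42.2% to 66.9% of alpha reads. Promoter use was not measured.

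Beta members have exon models of their own in GENCODE M1, and the levels per length below rest on these models. The annotation used for counting may have other lengths, which was not tested. The 22 genes lie on the plus strand within chr18:37424652-37681073 (mm9), 20 of them with a single exon, and their exon lengths run from 2350 to 7131 bases. Between 0% and 11.99% of the 50-base windows of a gene (median 3.91%) occurred elsewhere in the genome, and reads from such windows could be lost or misplaced. Levels are given in reads per kb of exon per 1e6 gene reads (RPKM).

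Pcdhb9 (chr18:37560509-37563563) was the highest beta member, at 7.66 ± 1.08 RPKM (SD, n = 8), and its lowest library (6.12) was above the highest library of every other beta gene. In CPM it had 26.9, 21.2, 19.6 and 18.7 in female and 24.3, 25.1, 27.7 and 23.7 in male replicates 1 to 4, with overlap of the sexes. It took 17.3% to 24.9% of beta reads. Pcdhb17 (chr18:37644675-37647943) followed at 3.34 ± 0.825 RPKM (SD, n = 8). Pcdhb16 (chr18:37637422-37642689) at 1.96 ± 0.750 and Pcdhb20 (chr18:37663926-37667476) at 1.89 ± 0.666 came next, followed by Pcdhb12 at 1.79 ± 0.297. The means of these 3 did not differ beyond their spread over libraries, and the genes were not compared within libraries. Counted per kb of windows found only once in the genome, their order was turned, with 2.07 for Pcdhb12, 2.06 for Pcdhb20 and 2.02 for Pcdhb16.

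At the low end of the genes with reads, Pcdhb18 had 0.407 ± 0.141 and Pcdhb6 0.498 ± 0.131 RPKM (SD, n = 8). Pcdhb2 (chr18:37454494-37457267), 0.564 ± 0.391 RPKM, had no read in female replicate 4 and 23 reads in the library with most. Pcdhb1 (chr18:37424652-37427108), the first gene of the cluster, had no read in any library although none of its windows occurred elsewhere in the genome. Position along the cluster and level were only weakly related, with a Spearman's rho of 0.25 over the 22 genes, which share libraries and lie next to each other.

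**Figure D2:**
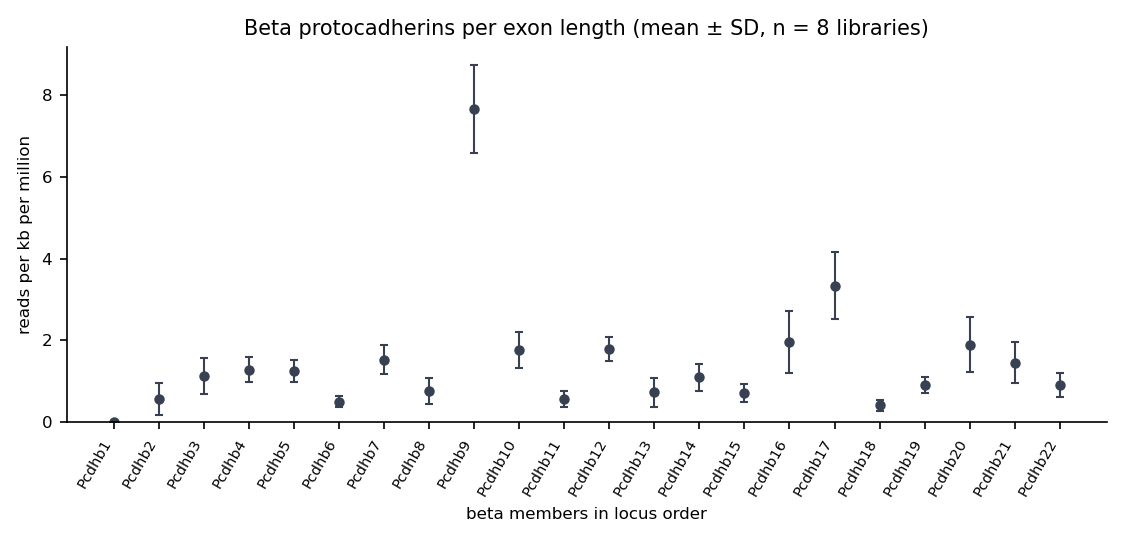
Level of each beta member in reads per kb of exon per 1e6 gene reads (RPKM), mean ± SD over the 8 libraries, in locus order. Pcdhb9 at 7.66 lies above all others, Pcdhb17 follows at 3.34, and Pcdhb1 is at 0.

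In the gamma cluster Pcdhgc3, a C-type, had the most reads. It had 36.7, 30.5, 29.6 and 11.1 CPM in female and 27.2, 33.3, 29.1 and 25.3 CPM in male replicates 1 to 4, and female replicate 4 was far below the other 7 libraries. Its share of gamma reads was steadier, at 21.6% to 28.1%. Pcdhgc4 was expressed at 3.44 ± 1.37 CPM (SD, n = 8), with 2.53 to 5.83 CPM in females and 1.92 to 3.63 CPM in males. Pcdhgc5 had at most 6 reads in a library and 18 in all, with none in 3 libraries. The C-types of the gamma cluster were therefore unequal, and their sum was 26.5% to 31.6% of gamma reads.

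The A-types took 47.9% to 55.2% and the B-types 16.4% to 23.2% of gamma reads. The leading members were Pcdhga3 with 9.27 ± 2.18 CPM, Pcdhgb1 with 8.58 ± 2.18 CPM and Pcdhga4 with 7.32 ± 2.12 CPM (SD, n = 8). Their means differed by less than these SDs over libraries, and the members were not compared within libraries. Pcdhga3 ranged from 5.22 to 11.1 CPM in females and 8.13 to 12.1 CPM in males. Pcdhgb1 ranged from 7.46 to 12.7 CPM in females and 5.12 to 8.73 CPM in males. Pcdhga4 ranged from 2.36 to 9.20 CPM in females and 7.10 to 8.62 CPM in males. The lowest gamma member, Pcdhgb8, had 0 to 2 reads per library. The 15 gamma members outside the naming rule had means from 1.41 CPM (Pcdhgb4) to 6.28 CPM (Pcdhga7).

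Summed over each cluster, the sexes were close. The alpha cluster had 219 ± 44.9 CPM in females and 195 ± 16.2 CPM in males (SD, n = 4 each), the beta cluster 109 ± 22.9 and 120 ± 5.95 CPM, and the gamma cluster 108 ± 38.4 and 111 ± 8.21 CPM. The log2 ratios of the means, female over male, were 0.17, -0.14 and -0.04. With all libraries, the difference was smaller than the female SD in all 3 clusters, and the groups overlapped. In pooled cells, a lower sum from fewer cells that express the genes and from less RNA per cell cannot be told apart.

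Without female replicate 4, the female SD fell from 22.9 to 6.21 CPM for beta and from 38.4 to 11.1 CPM for gamma, but stayed at 42.7 CPM for alpha, where replicate 3 was highest. The sums of replicate 4 were 176 CPM for alpha, 75.1 CPM for beta and 51.5 CPM for gamma, whereas the other females had 194 to 279, 113 to 125 and 119 to 139 CPM. Without it the log2 ratios were 0.26, 0.00 and 0.19. The gamma groups still overlapped. Their means without female replicate 4 were 126 CPM in females and 111 CPM in males, a difference above the female SD of 11.1 CPM. Among the 50 members that passed the expression filter, 46 were lower in this library than in the mean of the other females, by a median of -0.75 on the log2(CPM + 0.5) scale. The median was -0.42 for 12 alpha, -0.63 for 20 beta and -1.32 for 18 gamma members, and -0.02 for all 12518 genes tested. Of the 6 lists of other genes, 5 were also lowest in this library, all but the genes inside or beside the locus. The 25 nonclustered protocadherins and related atypical cadherins counted summed to 264 CPM there and to 366 to 500 CPM elsewhere, and the 23 signalling partners to 2147 CPM against 3268 to 3888 CPM. The 14 looping and promoter choice factors summed to 284 CPM against 365 to 438 CPM, the 21 classical and type II cadherins to 366 CPM against 510 to 694 CPM, and the 18 silencing factors to 419 CPM against 441 to 535 CPM. All 6 marker lists were highest in this library. Sensory neuron markers summed to 36661 CPM there and to at most 31182 CPM elsewhere, glial markers to 15290 against at most 12016, fibroblast markers to 159 against at most 143, macrophage markers to 15.2 against at most 9.72, endothelial markers to 89.8 against 51.8 to 60.1, and skeletal muscle markers to 4.89 against at most 4.58. Their part in the low protocadherin levels was not tested.

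**Figure D3:**
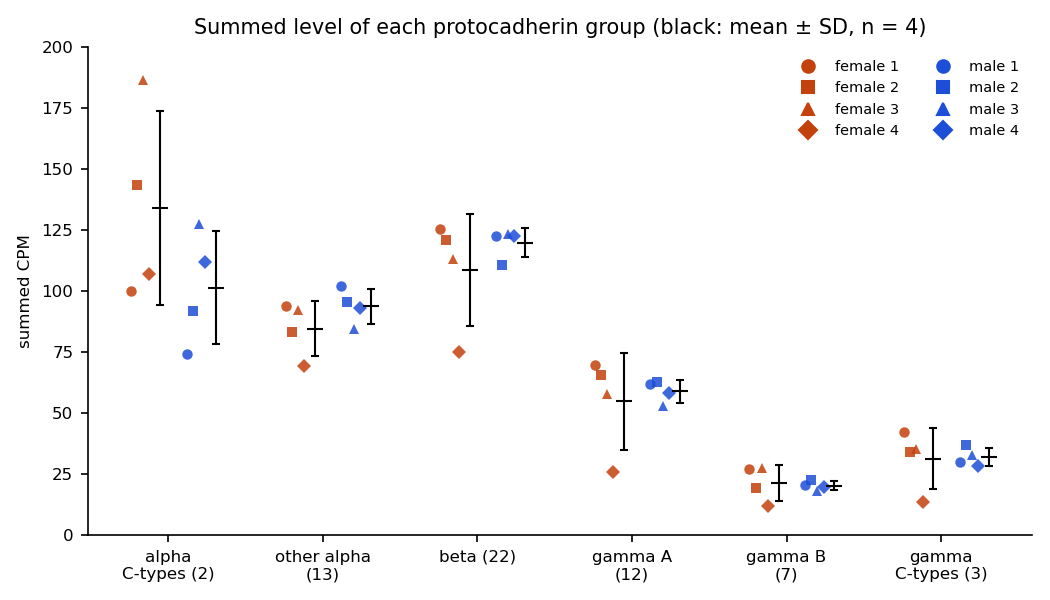
Summed CPM of each protocadherin group per library (females orange, males blue, marker shape for the replicate number), with the number of genes in parentheses and black bars for the mean ± SD (n = 4). Beta sums of males lie between 111 and 123 CPM, whereas female replicate 4 is at 75.1 CPM for beta and is the lowest library in all 3 gamma groups.

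To ask whether isoform use differed between the sexes, counts were compared with the quasi-likelihood test of edgeR over all 12518 genes that passed the filter on low counts, 50 members among them. The other 9 members had counts too low for the filter and were not tested. At a Benjamini-Hochberg adjusted p under 0.05, 0 members were called, and 11 of all genes (0.0879%), sex-linked ones included, were. DESeq2 and limma-voom also called 0 members. At an unadjusted p under 0.05, 1 member was higher in females (Pcdhac2), against 4.44% of all genes tested, and 3 were higher in males (Pcdhb21, Pcdha6 and Pcdhb20), against 2.67% of all genes tested. These 4 are described by their values, since none passed the adjusted test.

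By CPM, 1 of the 50 members had no overlap between the sexes, against 5.52% of all genes tested. That member, Pcdhb21, was higher in every male than in every female, as were 2.52% of all genes tested. The fitted level was higher in females for 18 of the 50 members, against 50.7% of all genes tested, with a median log2 fold change, female over male, of -0.14 for the members and 0.00 for all genes. This lean turned without female replicate 4, when 30 of 53 members tested were higher in females and the median was 0.04. By cluster, 5 of 12 alpha, 7 of 20 beta and 6 of 18 gamma members were higher in females with all libraries, and 6 of 12, 11 of 21 and 13 of 20 without that library.

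Pcdhb21 (chr18:37673306-37677967), next to the downstream end of the beta cluster, had 7.01, 4.16, 5.83 and 3.03 CPM in female and 9.28, 9.21, 8.26 and 7.54 CPM in male replicates 1 to 4. All males were above all females, and the lowest male and the highest female were close. Its log2 fold change was -0.79 ± 0.26 (SE), at an unadjusted p of 0.0114 and an adjusted p of 0.637 by edgeR. Without female replicate 4 it was -0.60.

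Pcdhb20, its upstream neighbour, is the member that the study named in its text as sex-dependent, as a male-selective gene, from these same libraries together with enriched trigeminal neurons not analysed here, so its direction here is not independent evidence. It had 6.19, 6.77, 5.00 and 3.37 CPM in female and 5.73, 7.58, 7.76 and 11.4 CPM in male replicates 1 to 4. Male replicate 1 lay within the female range and male replicate 4 was above all others. The study's list required RPKM above 1, a fold change above 2 and an unadjusted p under 0.05 by DESeq. Here the log2 fold change of Pcdhb20 was -0.62 ± 0.28 (SE), less than 2-fold in size. By edgeR its unadjusted p was 0.0490 and its adjusted p 0.698. Without male replicate 4 the log2 fold change was -0.41, a value that library therefore moved by over 1.5 times. GENCODE M1 annotates Pcdhb20 as a pseudogene with 2 exons and 3549 exon bases, and 5.56% of its windows occurred elsewhere in the genome. Its share of beta reads was 4.42% to 5.60% in females and 4.68% to 9.30% in males.

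Pcdhb20 and Pcdhb21 belong to a stretch at the downstream end of the beta cluster, from Pcdhb17 to Pcdhb22, in which all 6 neighbours had a fitted level higher in males. Their log2 fold changes in locus order were -0.14, -0.55, -0.35, -0.62, -0.79 and -0.35. This stretch was picked out after its values were seen and was not tested as a group. Without female replicate 4 the values were 0.04, -0.41, -0.27, -0.44, -0.60 and -0.09, so the first turned. Of the 14 beta members tested upstream of it, 7 were higher in females and 7 in males, from -0.50 for Pcdhb13 to 0.50 for Pcdhb8.

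Pcdha6, an alpha isoform subject to promoter choice, had 7.42, 6.07, 4.79 and 4.55 CPM in female and 11.6, 5.94, 9.58 and 9.02 CPM in male replicates 1 to 4. All males but replicate 2 were above all females. Its log2 fold change was -0.67 ± 0.25 (SE), at an unadjusted p of 0.0230 and an adjusted p of 0.651 by edgeR. Its upstream neighbour Pcdha5 had a log2 fold change of -0.62 ± 0.30 (SE), and its downstream neighbour Pcdha7 one of 0.38 ± 0.25 (SE), neither with an unadjusted p under 0.05 by edgeR.

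Pcdhac2 had a mean of 93.6 ± 31.2 CPM in females and 62.1 ± 9.31 CPM in males (SD, n = 4 each). Its log2 fold change was 0.58 ± 0.23 (SE), at an unadjusted p of 0.0290 and an adjusted p of 0.659 by edgeR. Without female replicate 3, its highest library, it was 0.37, a move of over 1.5 times. None of the other C-types had an unadjusted p under 0.05 by edgeR. The log2 fold change was 0.03 ± 0.27 for Pcdhac1, -0.10 ± 0.29 for Pcdhgc3 and 0.50 ± 0.35 for Pcdhgc4 (SE), and Pcdhgc5 was not tested. The value for Pcdhgc3 turned to 0.16 without female replicate 4. The differences between the C-types themselves were not tested.

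Glial marker levels differed between the sexes, as given above, and the fit was repeated with a glial score as a covariate. The log2 fold change was then 0.32 for Pcdhac2, -0.33 for Pcdha6, -0.65 for Pcdhb21 and -0.81 for Pcdhb20, none with an unadjusted p under 0.05 by edgeR. In that fit 2 members had an unadjusted p under 0.05, Pcdha7 at 0.74 and Pcdhb11 at 1.08, both higher in females, against 1.23% of all genes tested, and their adjusted p-values were 1. No member was higher in males at that threshold, against 1.11% of all genes tested. The fibroblast and skeletal muscle markers, also higher in every female, were not used as covariates, and their part in these values was not tested.

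**Figure D4:**
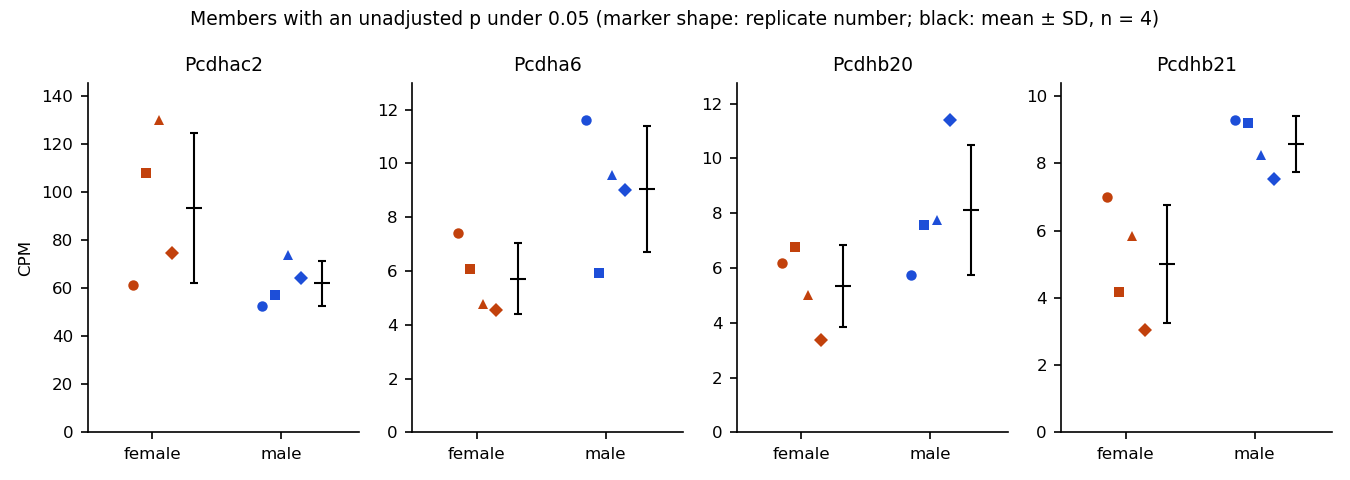
Level in CPM of the 4 members with an unadjusted p under 0.05 in each library (females orange, males blue, marker shape for the replicate number), with black bars for the mean ± SD (n = 4). The sexes overlap in Pcdhac2, Pcdha6 and Pcdhb20 and do not overlap in Pcdhb21, where females end at 7.01 and males begin at 7.54 CPM.

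**Figure D5:**
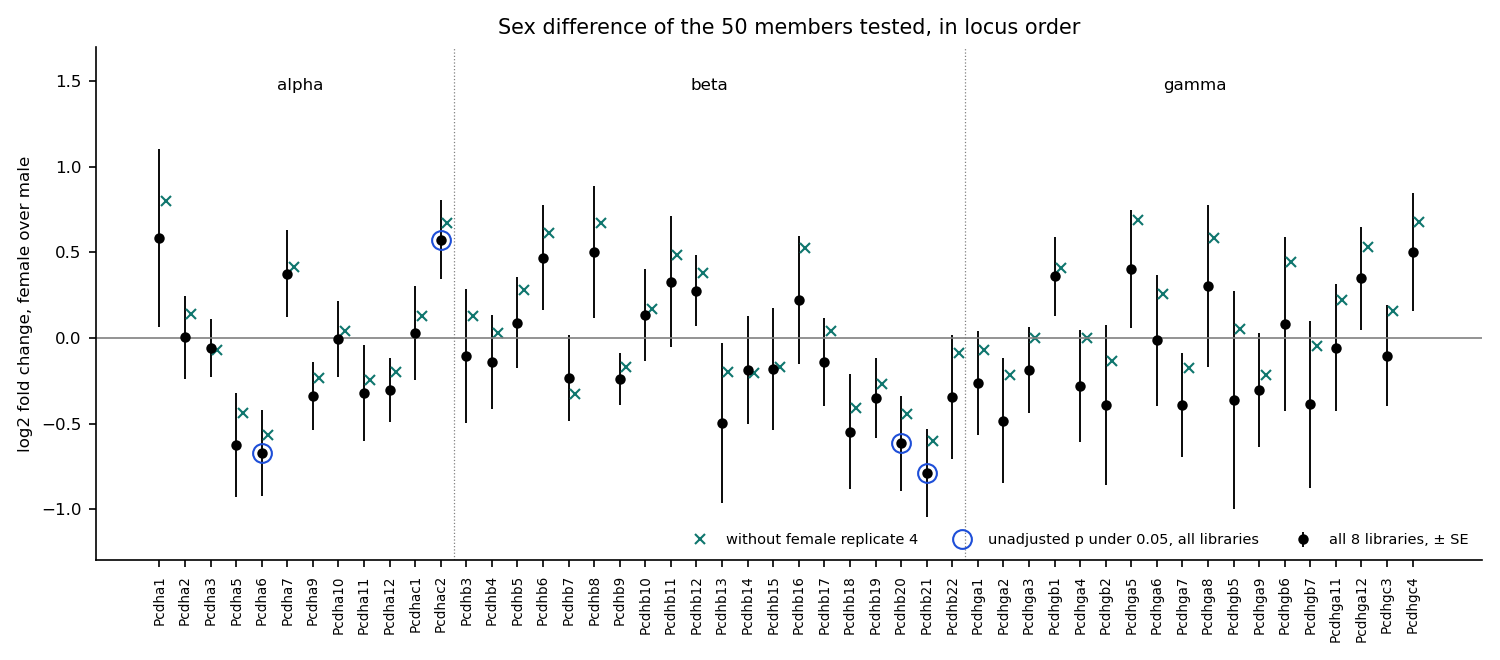
Log2 fold change, female over male, of the 50 members tested, in locus order, with all 8 libraries (black points, bars ± SE) and without female replicate 4 (green crosses). Blue rings mark the 4 members with an unadjusted p under 0.05, and without female replicate 4 most gamma members move upward.

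The biological coefficient of variation, edgeR's measure of replicate spread beyond counting error, had a median of 0.241 over the 50 members, 0.253 on the fitted trend at their levels, 0.194 over all genes within their range of levels and 0.183 over all genes tested. It was below the trend for 28 of the 50. Coefficients of variation of CPM over the 8 libraries ran from 10.8% for Pcdha3 to 54.1% for Pcdha1 among these 50, with a median of 31.8%.

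Genes that act with the clustered protocadherins showed no call at an adjusted p under 0.05 by edgeR in any of 6 lists. At an unadjusted p under 0.05 by edgeR, 4.44% of all genes tested were higher in females and 2.67% in males. The counts in each list are to be read beside these shares. The looping and promoter choice factors, CTCF, cohesin subunits and their loaders and releasers, had 13 members tested and 0 with an unadjusted p under 0.05, with a median log2 fold change of -0.02 (all genes, 0.00). Ctcf itself was at 9.82 ± 0.966 CPM in females and 9.15 ± 1.82 CPM in males (SD, n = 4 each). The cohesin subunit Smc1a (96.7 CPM), the cohesin loader subunit Mau2 (93.0 CPM) and the cohesin subunit Stag2 (33.5 CPM) had the highest mean CPM of the list.

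Of 15 DNA methylation and silencing factors tested, 1 had an unadjusted p under 0.05 by edgeR, against 4.44% of all genes higher in females and 2.67% in males. This was the histone deacetylase Hdac2, higher in females (log2 fold change 0.51 ± 0.20 SE, adjusted p 0.657). It had 60.8, 97.0, 113 and 126 CPM in female and 71.2, 64.3, 63.4 and 76.3 CPM in male replicates 1 to 4, and female replicate 1 was below every male. Setdb1, a histone methyltransferase known to protect the cluster's chromatin structure in neurons, had a log2 fold change of -0.05 ± 0.27 (SE). Smchd1, a chromatin protein known to silence clustered protocadherins, had one of -0.08 ± 0.21 (SE).

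Of 23 signalling partners tested, 0 had an unadjusted p under 0.05 by edgeR, against 4.44% higher in females and 2.67% in males over all genes. The median log2 fold change was -0.09. The list was led in CPM by the receptor tyrosine kinase Ret (893 CPM), the WAVE complex subunit Cyfip2 (695 CPM) and the small GTPase Rac1 (455 CPM). Among 18 nonclustered protocadherins and related cadherins tested, 0 had an unadjusted p under 0.05 by edgeR, against the same shares over all genes. Their median was 0.00, and Pcdh9 (107 CPM), Cdhr1 (90.02 CPM) and Pcdh17 (31.1 CPM) had the highest mean CPM.

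Of 16 classical and type II cadherins tested, 2 had an unadjusted p under 0.05 by edgeR and were higher in females, against 4.44% of all genes in that direction. M-cadherin, Cdh15, had a log2 fold change of 0.70 ± 0.16 (SE, adjusted p 0.413), with 36.6 to 50.9 CPM in females and 20.5 to 27.9 CPM in males and no overlap. Glial, fibroblast and skeletal muscle markers were also higher in every female, and their part in this value was not tested. P-cadherin, Cdh3, had 1.26 ± 0.35 (SE, adjusted p 0.563), with 2.06 to 4.86 CPM in females and 1.04 to 2.15 CPM in males. The part of those markers was not tested for Cdh3 either, nor for Hdac2 above or Rell2 and Fchsd1 below. The median of the list was 0.16.

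Of 20 genes inside or beside the locus that were tested, 2 had an unadjusted p under 0.05 by edgeR and were higher in females. Over all genes, 4.44% were so in that direction. Both genes lie downstream of the gamma cluster. Rell2 had 33.0, 79.7, 115 and 119 CPM in female and 20.5, 36.5, 31.2 and 34.3 CPM in male replicates 1 to 4, a log2 fold change of 1.48 ± 0.35 (SE, adjusted p 0.427). Fchsd1 had 39.3, 68.0, 101 and 97.2 CPM in female and 37.2, 42.6, 35.0 and 52.1 CPM in male replicates 1 to 4, a log2 fold change of 0.85 ± 0.27 (SE, adjusted p 0.637). In both genes female replicate 1 lay within the male range and the other females were above all males. The genes lie on opposite strands and share 1482 exon bases, 60.5% of those of Rell2 and 27.1% of those of Fchsd1. The strand setting of the counting is not given in the sources used here, and how reads on the shared bases were counted was not tested. Female replicate 4, low for the clustered protocadherins, was among the highest libraries for both. Taf7, a general transcription factor gene between the beta and gamma clusters, had a log2 fold change of 0.00 ± 0.17 (SE).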

How the data were processed

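WGA-488-labelled DRG neurons of 4 female and 4 male samples were prepared by SMART-seq2, with oligo-dT priming and PCR amplification, and sequenced as single 50-base reads. Per the labels and methods, the authors aligned reads to mm9 with TopHat2 and counted them per gene with HTSeq, and the deposited values are raw read counts. Versions, annotation and strand setting are not given in the sources used here. Reads were counted without molecular identifiers, and floors cover counting error only. The 5 summary lines of the counting program were left out of library sizes: reads outside features were 57.8% to 60.5% of uniquely aligned reads, and 18627 to 27749 reads per library were ambiguous between genes.

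The sexes were compared with edgeR 4.0.16 in R 4.3.3 (quasi-likelihood test, TMM factors, default expression filter, Benjamini-Hochberg adjustment over 12518 genes), with sex as the only term. The code was tested on simulated data. DESeq2 1.42.0, limma-voom (limma 3.58.1), other scalings and filters, a replicate block, a glial score and leaving out each library were alternatives. Positions came from GENCODE M1, and locus order from RefSeq names. Of the alpha and gamma isoforms, positions were not used here, and no sequence is printed. Named were Pcdhb20, the C-types, the 4 highest and 2 lowest members by mean CPM of each cluster, members with an unadjusted p under 0.05, with sexes that do not overlap or with 0 reads, and, from other lists, up to 3 genes highest in CPM and those with an unadjusted p under 0.05. Further genes (Ctcf, Setdb1, Smchd1, Taf7 and neighbours in the locus) were chosen after their values were seen. Members, lists and tests were chosen with earlier results of these data known. Tables and figures were made in Python 3.11.15 (pandas 2.3.3, matplotlib 3.10.9).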

Additional observations from a re-analysis of the deposited data

Results flagged for a closer look

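Single libraries were set against the others of their sex by the gap to the nearest library over the range of the group, by Dixon's critical value for 4 samples, which chance passes in about 1 in 20 groups. Of 52 groups examined, 4 passed. The beta sum of male replicate 2 was 111 CPM, whereas the other males had 122 to 123 CPM. The other 3 rest on 1 or 2 reads: Pcdha4 was at 0.275 CPM in female replicate 1 and at 0.149 CPM in male replicate 2, and Pcdhgb8 was at 0.165 CPM in male replicate 3, with 0 reads in the other libraries of that sex. Female replicate 4 did not pass for any quantity examined.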

How the results depend on the processing

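The count of 0 members called at an adjusted p under 0.05 held under all 16 alternatives run. The 1 member higher in females at an unadjusted p under 0.05 became 2 with the glial score and 0 with limma-voom, and 0 to 3 when 1 library was left out: 3 without female replicate 4, and 0 without female replicate 2 or 3 or male replicate 1 or 2. The 3 members higher in males became 0 with the glial score and 1 to 4 when 1 library was left out, the 1 without female replicate 4. In the leave-out fits, 399 to 725 of 12573 to 12752 genes tested were higher in females and 188 to 728 in males. Without female replicate 4 these were 725 and 728 of 12724 genes, beside 3 and 1 of 53 members. Limma-voom had 499 of 12518 genes higher in females, and the glial score 1.23% in females and 1.11% in males. The count of members higher in females (18) ranged from 14 to 30 in the leave-out fits, an alternative chosen after seeing the data. Pcdhb20 kept its direction, from -0.75 to -0.41 without single libraries. With the glial score, the log2 fold change reversed for Pcdhac1 (-0.48), Pcdhb17 (0.075) and Pcdhga3 (0.085). Leaving out 1 library reversed Pcdhac1 (range -0.18 to 0.22), Pcdhb16 (-0.029 to 0.53), Pcdhb17 (-0.32 to 0.043), Pcdhga4 (-0.48 to 0.0017) and Pcdhgc3 (-0.29 to 0.16), and the cause was not tested. Leave-out ranges of the summed log2 ratios were 0.03 to 0.26 for alpha, -0.22 to 0.00 for beta and -0.19 to 0.19 for gamma.

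Same-numbered libraries did not clearly deviate together (correlations -0.11 to 0.13, against -0.24 to 0.15 for other pairs of a female and a male). With 4 such pairs, shared handling of same-numbered libraries cannot be told. With the replicate block, 1 of 50 members was higher in females and 2 in males at an unadjusted p under 0.05 by edgeR. Of all 12518 genes tested in that fit, 504 were higher in females and 368 in males. Pcdhb20 had a log2 fold change of -0.60 with an adjusted p of 0.716 by edgeR. Over all genes, the 11 calls at an adjusted p under 0.05 became 46 with DESeq2, 5 with the glial score, 6 with the replicate block, 84 without female replicate 1 and 7 without male replicate 4. Counts were low in some libraries: the lowest library of Pcdhb20, Pcdhb21 and Pcdha6 held 20, 18 and 23 reads. The part of counting error in the spread of these members was not tested.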
